A study of Arabidopsis thaliana with 88 samples.

Results

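RHD6 and the RSL genes of Arabidopsis thaliana, which encode the basic helix-loop-helix regulators of root hair development, were followed through the root libraries of a study of ploidy. The 7 loci were chosen by name, as AT1G66470 (RHD6), AT5G37800 (RSL1), AT4G33880 (RSL2), AT2G14760 (RSL3), AT1G27740 (RSL4), AT5G43175 (RSL5) and AT5G58010 (LRL3), out of 33681 genes in the files. Earlier results of these data were known when the loci were chosen. All 7 had reads, and 5 of them passed the low count filter of 2 CPM (reads scaled to the total of their library) in at least 6 libraries, as did 20347 genes in all. RSL3 and RSL5 did not pass it and were tested apart.

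The study asked how tetraploidy changes the transcriptome and mineral content of the plant. The 3′ ends of polyadenylated RNA were sequenced from roots of plants kept for 2 weeks on sucrose-containing agar plates, and from the roots and the shoots of plants kept for 5 weeks on peat soil in short days. The genotypes were rhd6-3/rsl1-1, which is mutant in both RHD6 and RSL1, sos3-2, esb1-1, a line labelled chx25-3 (the study's text names it chx23-4) and wild type Col, each as a 4x (tetraploid) and a 2x (diploid) line. The 86 libraries with a clear genotype label formed 30 groups by set, genotype and ploidy, of which 26 held 3 libraries and 4 held 2, among them 2x rhd6-3/rsl1-1 on plates. Plants of all these groups grew under control conditions. The 4x mutant lines came from colchicine treatment and the 4x wild type line from earlier work, the 4x rhd6-3/rsl1-1 plants descend from 1 plant, each plate library pools several plants, and each soil library was made from a single plant. For plate libraries the sources do not say whether pools came from separate plates, so that p-values there measure the spread between these libraries.

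As background, RHD6 and RSL1 act together at the start of the pathway. They are expressed in the epidermal cells that will form a hair, downstream of the patterning complex that sets hair and non-hair cells apart, and plants that lack both form almost no root hairs. They are needed for full expression of RSL4 and RSL2, which drive hair elongation, and of LRL3, a regulator of a related subfamily, while RSL3 and RSL5 belong to the same subfamily as RSL2 and RSL4. These factors in turn activate genes for wall proteins, vesicle traffic and signalling at the growing hair tip.

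Plate root libraries held 3292996 to 10246421 assigned reads, soil root libraries 5850010 to 10435932 and shoot libraries 4698913 to 8635531, so that a gene at 1 CPM was seen as a few reads. The summed level of 6 endodermis marker genes, as a check of root tissue, was 565 to 843 CPM in rhd6-3/rsl1-1 plate roots and 483 to 784 in wild type plate roots, 320 to 474 in rhd6-3/rsl1-1 soil roots and 227 to 501 in wild type soil roots, and at most 2.49 in the shoots of both. The summed level of 6 leaf marker genes was 86.6 to 188 CPM in rhd6-3/rsl1-1 plate roots against 88.8 to 182 in wild type, and 17.2 to 93.7 in rhd6-3/rsl1-1 soil roots against 19.9 to 65.6 in wild type. No gene of either list was at 0 in all root libraries of a genotype, and none was called in rhd6-3/rsl1-1 against wild type in either root set. In plate roots the library number carried by the deposited files ran from 20 to 24 in rhd6-3/rsl1-1 and from 1 to 6 in wild type, so that genotype and library number cannot be told apart there. For 1 member, LRL3, the chx25-3 plate libraries, numbered 25 to 30, ran from 27.9 to 96.3 CPM. These values reach below and above the wild type range of 37.0 to 82.5 and do not tell genotype and number apart. In soil roots the numbers of both genotypes interleave.

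In wild type roots the levels of the members spread widely on the TPM scale, which divides by transcript length. In plate roots LRL3 averaged 42.9 ± 12.9 TPM, RSL2 16.4 ± 7.32, RSL4 6.12 ± 1.07, RHD6 4.41 ± 0.596, RSL3 0.944 ± 0.365, RSL1 0.810 ± 0.448 and RSL5 0.259 ± 0.247 (SD, n = 6). Neighbours in that order overlapped between libraries for LRL3 and RSL2, for RSL4 and RHD6, for RSL3 and RSL1 and for RSL1 and RSL5, while RSL2 and RSL4, and RHD6 and RSL3, did not overlap. As 3′ tags come from 1 end of a transcript, dividing by length raises short ones such as RSL5 (812 bases, RSL1 1365). In CPM, RSL1 (lowest 0.669) and RSL5 (highest 0.491) did not overlap, while the other pairs stood as in TPM. Within every wild type plate library LRL3 stood above RSL2 and RSL4 above RHD6, which was not so for RSL3 and RSL1. In soil roots the order was LRL3 with 5.87 ± 2.16 TPM, RSL2 with 3.63 ± 1.37, RHD6 with 1.39 ± 0.411, RSL4 with 0.815 ± 0.453, RSL1 with 0.391 ± 0.179 and RSL3 with 0.267 ± 0.137 (SD, n = 6), and RSL5 had no read. RHD6 thus stood before RSL4 in soil, and each pair of neighbours in the soil order overlapped between libraries. Within every wild type soil library LRL3 stood above RSL2 and RSL2 above RHD6, while the later neighbours changed order in some libraries.

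Reads of the 2 mutated genes remained in rhd6-3/rsl1-1. RHD6 had 27, 13 and 30.86 reads in the 4x and 17 and 13 reads in the 2x rhd6-3/rsl1-1 plate libraries, against a lowest, median and highest of 62, 73 and 99 in the 6 wild type libraries. In CPM, every rhd6-3/rsl1-1 library (1.65 to 4.33) lay below every wild type library (5.57 to 7.91). From the summed reads, RHD6 stood at 43.1% of wild type in plate roots (95% exact interval 34.4 to 53.5%, 101 against 455 reads), and the log2 fold change was −1.26 ± 0.27 (SE) with an edgeR Benjamini-Hochberg adjusted p of 0.00076. Within ploidies the change was −1.15 at 4x (edgeR adjusted p = 0.048), a call lost in 8 of 11 fits that left out 1 library, up to 0.37 without 4x rhd6-3/rsl1-1 replicate 2, and with relative log expression size factors (edgeR adjusted p = 0.059). At 2x it was −1.37 (edgeR adjusted p = 0.056), and the gene was called there by both limma-voom fits, by DESeq2 and by 4 other edgeR fits, namely with no low count filter, to the root libraries alone, to the plate set alone and with the replicate block (adjusted p 0.0053 to 0.048 over these 7). Where the insertions lie is not given in the sources used here, and a 3′ tag downstream of an insertion can still be counted, so that these reads do not by themselves check the genotype labels.

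In soil roots RHD6 did not differ beyond the spread. It had 20, 8 and 27 reads in the 4x and 4, 11 and 17 reads in the 2x rhd6-3/rsl1-1 libraries, against 14, 19.5 and 31 as the lowest, median and highest of wild type. The groups overlap, and the summed reads gave 79.1% of wild type (95% exact interval 59.4 to 105%), with a log2 fold change of −0.37 ± 0.27 (edgeR adjusted p = 1). RSL1 was low in all roots. It had 5, 2 and 5.139 reads in the 4x and 2 and 2 reads in the 2x rhd6-3/rsl1-1 plate libraries, against a lowest, median and highest of 8, 9 and 27 in wild type. The sums of 16 and 79 reads put RSL1 at 39.3% of wild type on plates (95% exact interval 21.4 to 67.8%), but the test across libraries did not call it (log2 fold change −1.46 ± 0.52, edgeR adjusted p = 0.077), while the edgeR fit to root libraries alone did (adjusted p = 0.037). In soil roots, 20 against 33 reads gave 67.7% (36.8 to 122%), also not called (edgeR adjusted p = 1).

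**Figure D1:**
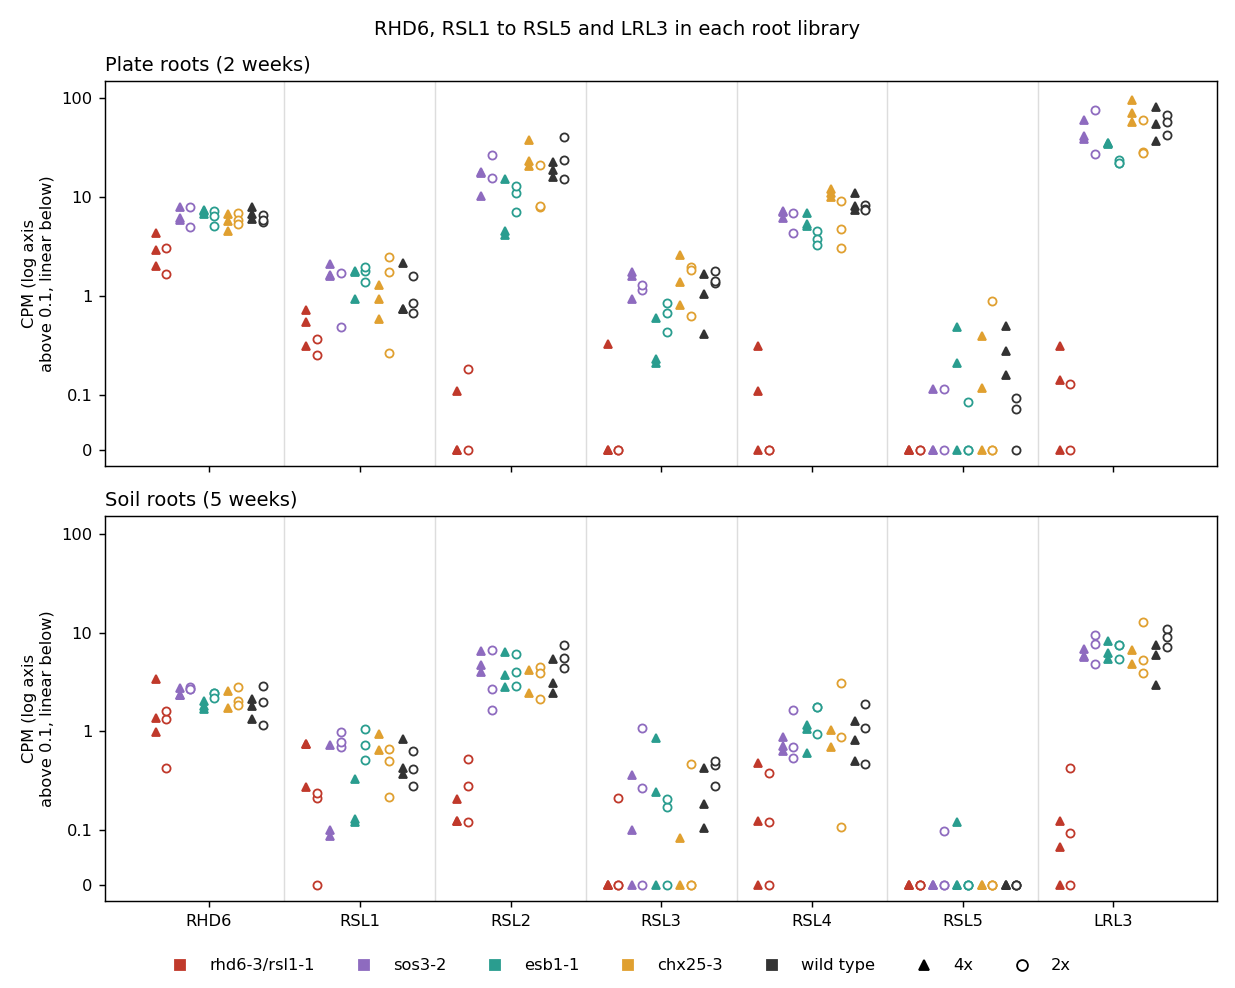
CPM (y axis, logarithmic above 0.1 and linear below) of the 7 members in each plate root library (upper panel) and soil root library (lower panel). Each point is 1 library, coloured by genotype, with filled triangles for 4x and open circles for 2x; on plates LRL3 stands at 0 to 0.309 in rhd6-3/rsl1-1 and at 37.0 to 82.5 in wild type.

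RSL2, RSL4 and LRL3 had at most 2 reads in any rhd6-3/rsl1-1 plate root library. Of the 5 members tested there, 4 were called lower (RHD6, RSL2, RSL4 and LRL3) and none higher, where 4.00% of all genes tested were called lower, and 6.33% in either direction. A call was an adjusted p under 0.05 with a log2 fold change of at least 0.5 in size. RSL2, the elongation regulator most abundant after LRL3, had 1, 0 and 0 reads in the 4x and 1 and 0 reads in the 2x rhd6-3/rsl1-1 plate libraries. The wild type plate libraries held between 163 and 548 RSL2 reads, with a median of 239.5. The 2 reads against 1640 in all are 0.237% of wild type in CPM (95% exact interval 0.0286 to 0.856%), and edgeR gave an adjusted p of 7.0e-16. The exact intervals, above and below, come from reads summed over libraries, so that they describe counting error only and leave out the spread between libraries. The floors below also take the reads of the other group as exact. The libraries carried no molecular identifiers, so that the counting error itself may be larger. In bulk roots, fewer cells of a type and less RNA per cell cannot be told apart, here and for all members below.

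RSL4, which sets hair length, had 1, 2 and 0 reads in the 4x and 0 and 0 reads in the 2x rhd6-3/rsl1-1 plate libraries, against 78, 96.5 and 117 as the lowest, median and highest of wild type. That is 1.00% of wild type (95% exact interval 0.206 to 2.95%, edgeR adjusted p = 2.3e-12). At 2x, where rhd6-3/rsl1-1 had no read and wild type 270, the level was 34.6-fold lower with a floor of 3 reads in place of 0. LRL3, the member with the most reads, had 0, 2 and 1 reads in the 4x and 0 and 1 reads in the 2x rhd6-3/rsl1-1 libraries, against 457, 643.5 and 917 as the lowest, median and highest of wild type. The 4 against 4009 reads are 0.194% of wild type (95% exact interval 0.0527 to 0.496%, edgeR adjusted p = 4.5e-23). For RSL2, RSL4 and LRL3 no library of rhd6-3/rsl1-1 came near any library of the other 4 genotypes on plates, whose lowest values were 4.18, 3.04 and 22.1 CPM. Over all genes tested, every rhd6-3/rsl1-1 plate library lay below every wild type library for 4.68%. These 3 genes were also called at each ploidy alone, where 2.62% of all genes were called at 4x and 2.56% at 2x, with 4 members called at 4x and 3 at 2x. When edgeR was given the library number as a covariate, LRL3 was again called, while RSL2 and RSL4 kept log2 fold changes of −9.98 and −8.67, against −8.26 and −7.41 without it, that were not called (adjusted p 0.076 and 0.28). RHD6 was not called with the covariate either and had a log2 fold change of 0.06. As the model holds the group means, the covariate is fitted from numbers within groups and extended over the gap between the genotypes. Neither kept nor lost calls thus tell genotype and number apart.

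The rarest members were tested by exact permutation. RSL3 had 3, 0 and 0 reads in the 4x and no read in both 2x rhd6-3/rsl1-1 plate libraries, against 5, 16.5 and 19 reads as the lowest, median and highest of wild type. The groups did not overlap in CPM, and 3 against 88 reads are 6.61% of wild type (95% exact interval 1.34 to 19.97%). An exact two-sided permutation test of mean CPM within ploidies gave p = 0.005, the smallest value that its 200 arrangements allow. RSL5 had no read in the 5 rhd6-3/rsl1-1 plate libraries and 0 to 6 in the 6 of wild type, 13 in all. With a floor of 3 reads in place of 0, its level was 2.23-fold lower. This value leaves out the counting error of the 13 wild type reads. The exact two-sided permutation p of RSL5 was 0.02, but 1 wild type library also held no RSL5 read. Of the 4 such tests run, over RSL3 and RSL5 in both root sets, RSL3 in soil roots gave an exact two-sided permutation p of 0.005 and RSL5, with no read in either group there, gave 1. In an edgeR fit with no low count filter, RSL3 was called on plates (log2 fold change −4.70, adjusted p = 0.0012) but not in soil roots (−3.17, adjusted p = 0.48), and RSL5 was not called on plates (adjusted p = 0.33).

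In soil roots, RSL2, RSL4 and LRL3 were again called lower in rhd6-3/rsl1-1 than in wild type, 3 of 5 members tested, where 0.831% of all genes were called lower and 0.870% in either direction. RSL2 had 3, 1 and 1 reads in the 4x and 5, 1 and 3 reads in the 2x rhd6-3/rsl1-1 libraries, against 29, 56 and 82 as the lowest, median and highest of wild type. All 6 rhd6-3/rsl1-1 libraries thus held some RSL2 reads and all lay below wild type, at 5.03% of its level (95% exact interval 2.72 to 8.57%, 14 against 311 reads, edgeR adjusted p = 1.1e-09). LRL3 had 1, 1 and 0 reads in the 4x and 4, 0 and 1 reads in the 2x rhd6-3/rsl1-1 libraries, against 35, 74.5 and 118 as the lowest, median and highest of wild type. That is 1.64% of wild type (95% exact interval 0.657 to 3.41%, edgeR adjusted p = 1.7e-16), again without overlap, which held for 0.865% of all genes tested. RSL2 and LRL3 were called at both ploidies in soil, where 0.516% of all genes were called at 4x and 0.619% at 2x.

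RSL4 stood at a larger share of wild type in soil than on plates. It had 7, 0 and 1 reads in the 4x and 0, 1 and 4 reads in the 2x rhd6-3/rsl1-1 soil libraries, against 5, 10.5 and 23 as the lowest, median and highest of wild type. Its highest rhd6-3/rsl1-1 library (0.479 CPM) overlapped the lowest wild type library (0.465), though not within a ploidy. The 13 against 67 reads are 21.7% of wild type (95% exact interval 10.98 to 39.6%), with a log2 fold change of −2.17 ± 0.54 (edgeR adjusted p = 0.022). The call was lost in 6 of 12 fits that left out 1 library, namely without 2x rhd6-3/rsl1-1 replicate 1 or 2, 4x rhd6-3/rsl1-1 replicate 2 or 3, 2x wild type replicate 3 or 4x wild type replicate 2, with edgeR adjusted p from 0.073 to 0.17. It was also lost in edgeR fits to the soil root set alone (adjusted p = 0.17) and to the compared groups alone (0.16), and RSL4 was not called at either ploidy alone by edgeR, while both limma-voom fits called it at 2x. RSL3 had 2 reads in 1 of the 6 rhd6-3/rsl1-1 soil libraries and 22 in all 6 of wild type, 10.2% of its level (95% exact interval 1.16 to 41.3%).

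**Figure D2:**
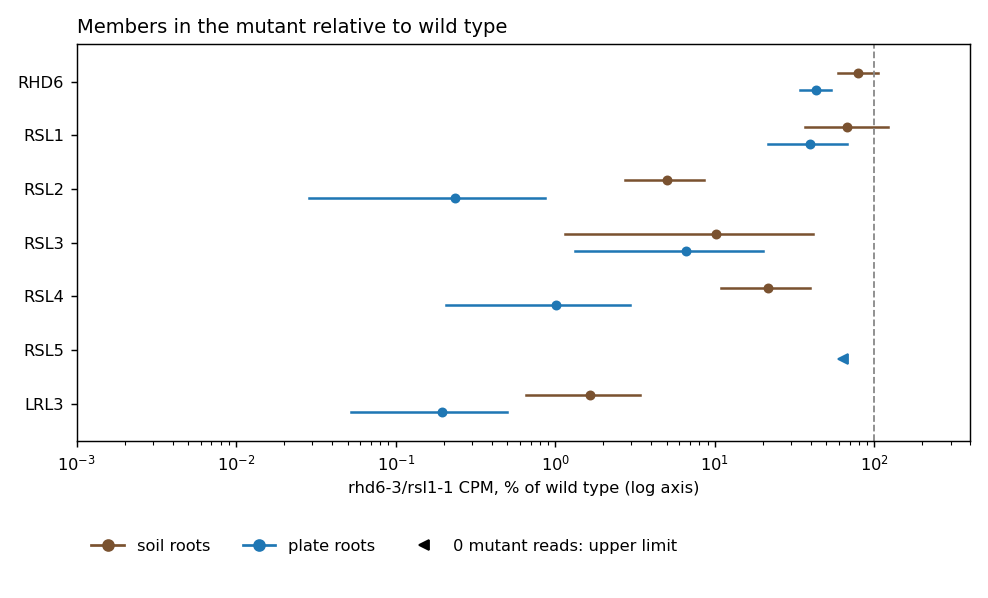
Level of each member in rhd6-3/rsl1-1 as a percentage of wild type (x axis, logarithmic), from reads summed over both ploidies, in soil roots (brown) and plate roots (blue). Points are ratios of CPM, lines their 95% exact counting intervals, the arrowhead the upper limit for RSL5 on plates, and the dashed line equality; RHD6 and RSL1 lie at 39.3 to 79.1% and RSL2 and LRL3 below 6%.

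The difference between rhd6-3/rsl1-1 and wild type was itself compared between the root sets, soil minus plate. The estimate was positive for all 5 members tested, and RSL4 was the member called, with a log2 difference of 5.23 ± 1.21 (edgeR adjusted p = 0.013), where 0.757% of all genes were called with a positive difference and 0.944% in either direction. The RSL4 value rests on 3 reads in 5 rhd6-3/rsl1-1 plate libraries and 13 in 6 soil libraries, and its call was lost without plate 2x rhd6-3/rsl1-1 replicate 2 (edgeR adjusted p = 0.052), soil 4x replicate 1 (0.38) or soil 2x replicate 3 (0.34). RSL2 had a log2 difference of 4.01 ± 1.09 (edgeR adjusted p = 0.054), LRL3 of 3.13 ± 1.17 (0.27), RHD6 of 0.90 ± 0.38 (0.38) and RSL1 of 0.68 ± 0.85 (0.87). Fitted changes of members that are near 0 on plates depend on how the model treats zero counts, and the sets differ in age, medium and number of plants per library at once, which cannot be told apart.

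Around the members, the genes of hair growth fell while most patterning genes did not pass the test. Of 29 root hair growth genes, 27 were called lower in rhd6-3/rsl1-1 plate roots, where 4.00% of all genes were, and all 29 had a negative change, with a median log2 fold change of −7.25 beside −0.0032 over all genes. In soil roots 18 were called lower, where 0.831% of all genes were, and 28 had a negative change, with a median of −3.35 beside −0.012. None was called higher in either set. This list, like the others, was chosen with earlier results of these data known, so that its counts describe and do not test. EXPA7, an expansin that loosens the hair wall, fell to 7 reads in 5 rhd6-3/rsl1-1 plate libraries against 7152 in 6 wild type libraries, and to 14 against 710 in soil roots. RHS12 had no read in rhd6-3/rsl1-1 plate roots and 1489 in wild type, 256-fold lower with a floor of 3 reads in place of 0. MRH6 had none in rhd6-3/rsl1-1 in either set, against 598 reads on plates and 47 in soil in wild type. The largest plate sum belonged to PRP3, a proline-rich wall protein gene, with 22 against 24246 reads on plates (0.176% of wild type) and 22 against 1131 in soil (2.17%). LRX1, a leucine-rich repeat extensin gene, stood at 0.209% of wild type on plates and 3.02% in soil. Of the RHS genes, a set first described by their root hair expression, RHS13 stood at 0.267% of wild type on plates and 2.36% in soil, RHS15 at 0.0730% and 2.52%, and RHS18 at 0.151% and 7.06%.

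The 2 growth genes that were not called on plates were CSLD3, a cellulose synthase-like gene, at 69.0% of wild type (edgeR adjusted p = 0.069, and 0.011 to 0.033 with a call in edgeR fits to the plate set alone, to the compared groups alone or with the replicate block and with limma-voom on counts) and ROP2, a small GTPase gene used widely in the plant, at 84.4% (edgeR adjusted p = 0.52). In soil they stood at 77.8% and 96.4%, both at an edgeR adjusted p of 1. LRX2, named after its values were seen, was the growth gene with a positive change in soil, at 140% of wild type from 49 against 39 reads, and was not called (edgeR adjusted p = 1).

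**Figure D3:**
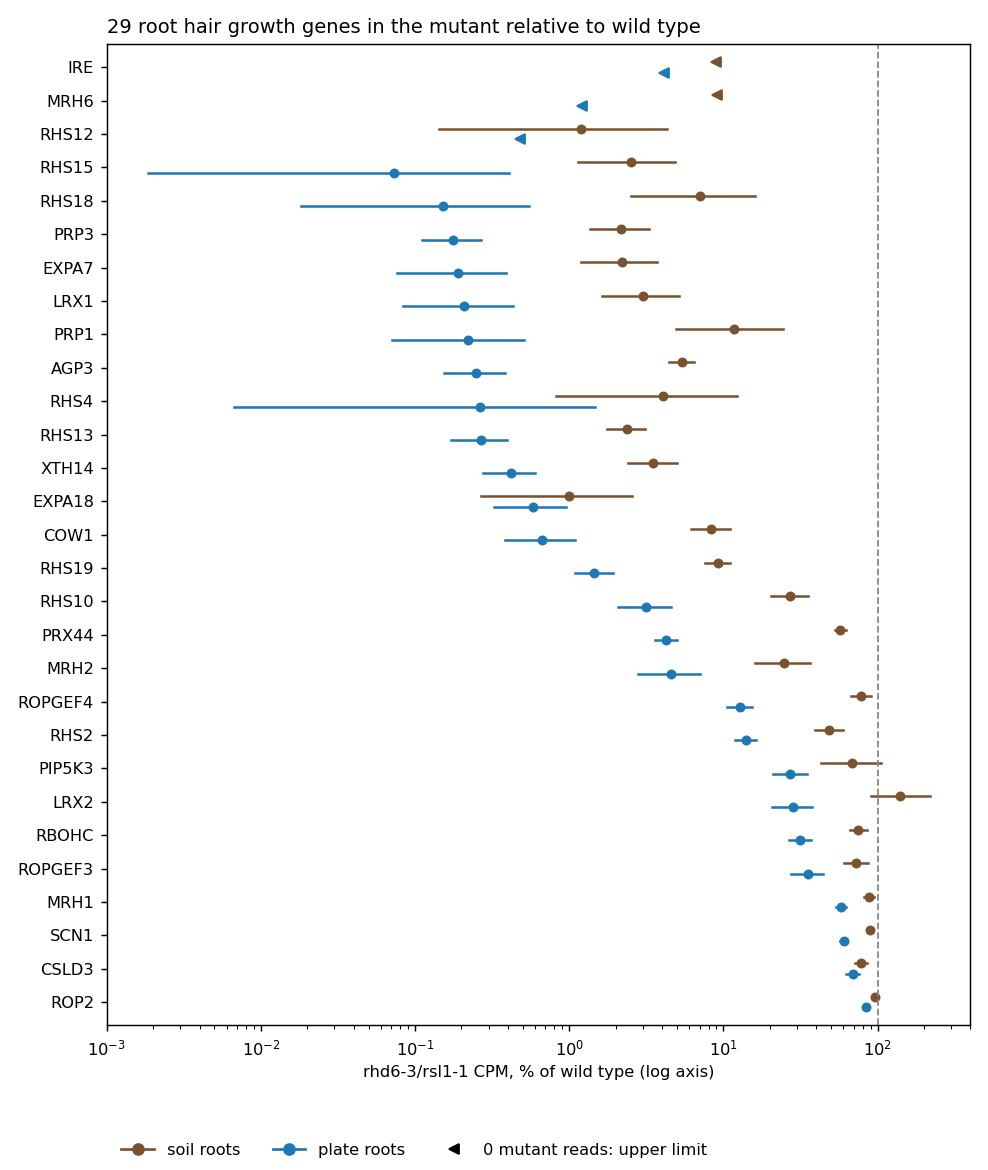
Level of 29 root hair growth genes in rhd6-3/rsl1-1 as a percentage of wild type (x axis, logarithmic), from reads summed over both ploidies, in soil roots (brown) and plate roots (blue), ordered by the plate value. Lines are 95% exact counting intervals and arrowheads upper limits for genes with no read in rhd6-3/rsl1-1; ROP2 lies at 96.4% in soil and 84.4% on plates, while RHS12 had no read on plates.

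Of 13 epidermal patterning genes, which act before RHD6, MYC1 was lower in both sets and WER higher on plates. MYC1, a basic helix-loop-helix gene of the patterning complex family, averaged 0.8004 ± 0.513 CPM in rhd6-3/rsl1-1 plate roots (n = 5) and 4.13 ± 1.55 in wild type (SD, n = 6), a log2 fold change of −2.37 ± 0.34 (edgeR adjusted p = 2.6e-07). In soil roots it averaged 3.14 ± 0.718 in rhd6-3/rsl1-1 and 8.69 ± 1.85 in wild type (SD, n = 6 each), a change of −1.47 ± 0.25 (edgeR adjusted p = 4.1e-05). WER, the MYB gene of non-hair cells, averaged 11.9 ± 6.34 CPM in rhd6-3/rsl1-1 plate roots (n = 5) and 6.47 ± 2.08 in wild type (SD, n = 6), a change of 0.91 ± 0.28 (edgeR adjusted p = 0.028), and this call was lost without 2x rhd6-3/rsl1-1 replicate 1 (log2 0.36), 4x rhd6-3/rsl1-1 replicate 1 (0.79), 2x wild type replicate 1 (0.81) or 4x wild type replicate 3 (0.81). The other 11 on plates and 12 in soil were not called, among them TTG1, with log2 fold changes of 0.18 ± 0.14 on plates and −0.05 ± 0.13 in soil, and JKD, with 0.18 ± 0.23 and −0.02 ± 0.21. None of 7 other root hair regulators was called in either set by the edgeR fit over all 86 libraries, while edgeR fits to the root libraries, to the plate set or to the compared groups alone called 2 of them on plates and the fit with the replicate block called 1. Among the 7 was LRL1, a paralog of LRL3, with log2 fold changes of 0.22 ± 0.16 on plates and 0.16 ± 0.15 in soil (edgeR adjusted p = 0.45 and 1). GTL1, a repressor of hair growth, changed by −0.14 ± 0.22 and 0.12 ± 0.20 on the log2 scale and was not called either.

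By edgeR no member was called between 4x and 2x plants in any genotype or root set. Averaged over the 5 genotypes, 0 of 5 members were called in plate roots, where 0.172% of all genes were called and 2034 genes had an unadjusted p under 0.05, and 0 of 5 in soil roots, where 0.816% were called and 1758 had an unadjusted p under 0.05 (edgeR, with limma-voom and DESeq2 also calling 0 members). LRL3 averaged 58.2 ± 22.9 CPM at 4x and 56.4 ± 12.7 at 2x in wild type plate roots, and 5.44 ± 2.28 at 4x and 9.03 ± 1.92 at 2x in wild type soil roots (SD, n = 3 each), changes of 0.04 ± 0.37 and −0.74 ± 0.40 on the log2 scale. RHD6, with the smallest errors, changed by 0.15 ± 0.16 on plates and −0.01 ± 0.18 in soil over the 5 genotypes. Such means include rhd6-3/rsl1-1, where RSL2, RSL4 and LRL3 had almost no reads on plates. Within single genotypes the share of all genes called on plates was 0.00983% in rhd6-3/rsl1-1, 0.00% in sos3-2, 0.0541% in esb1-1, 2.83% in chx25-3 and 0.0246% in wild type. In soil it was 0.0197% in rhd6-3/rsl1-1, 0.00983% in sos3-2, 0.00491% in esb1-1, 0.0246% in chx25-3 and 0.0491% in wild type. In chx25-3 plate roots RSL2, RSL4 and LRL3 had changes of 1.11 ± 0.44, 0.93 ± 0.45 and 0.94 ± 0.38 that edgeR did not call (adjusted p 0.17 to 0.29) and of which each limma-voom fit called 2. The ploidy effect in rhd6-3/rsl1-1 minus that in wild type was not called for any member on plates, where 0.00491% of all genes were, or in soil, where 0.0147% were. For RSL4 on plates that value of 3.01 ± 2.34 rests on 3 reads at 4x and none at 2x in rhd6-3/rsl1-1.

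**Figure D4:**
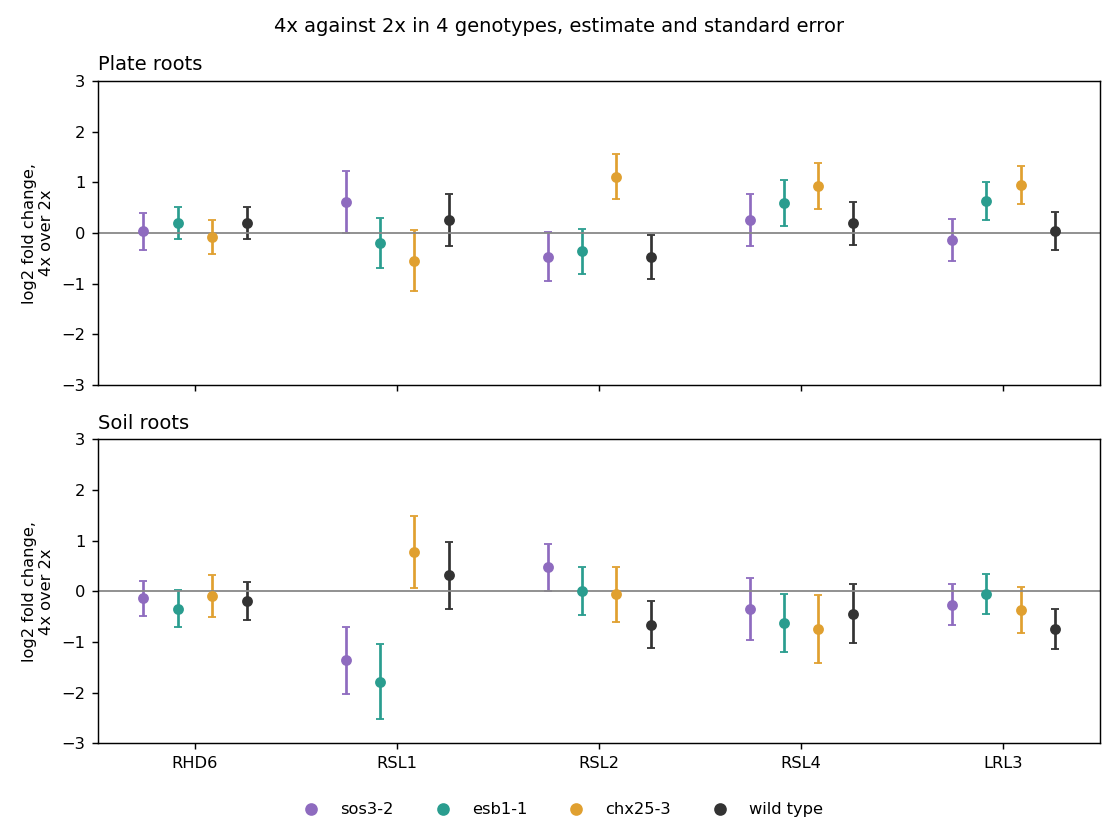
Log2 fold change of 4x over 2x (y axis) for the 5 members tested, in plate roots (upper panel) and soil roots (lower panel) of sos3-2, esb1-1, chx25-3 and wild type. Points are edgeR estimates and bars their standard errors; rhd6-3/rsl1-1 is left out because most members had almost no reads there, and no point was called, the RSL2 value of 1.11 in chx25-3 plate roots included.

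Among the other mutants, esb1-1, in which the Casparian strip of the endodermis is disturbed, had lower levels of 2 members on plates. RSL2 had 44, 128 and 36 reads in the 4x and 81, 149 and 152 reads in the 2x esb1-1 plate libraries, and averaged 9.17 ± 4.61 CPM against 22.9 ± 9.34 in wild type (SD, n = 6 each). The log2 fold change of RSL2 was −1.31 ± 0.31 (edgeR adjusted p = 0.0076), and the highest esb1-1 library and the lowest wild type library both stood at 15.4. LRL3 averaged 28.97 ± 6.90 CPM in esb1-1 and 57.3 ± 16.6 in wild type (SD, n = 6 each), with every esb1-1 library (22.1 to 35.6) below every wild type library, as for 2.55% of all genes, a change of −1.02 ± 0.27 (edgeR adjusted p = 0.016). Of all genes tested, 2.54% were called lower in esb1-1 plate roots and 3.42% in either direction. RSL4 changed by −0.80 ± 0.31 without a call (edgeR adjusted p = 0.15), but was called by both limma-voom fits (adjusted p = 0.014 and 0.037) and by edgeR fits to the root libraries alone (0.023) and to the plate set alone (0.0075). RHD6 changed by 0.05 ± 0.22 and RSL1 by 0.50 ± 0.36, while 22 of 29 root hair growth genes were called lower (median −1.19, beside −0.0055 over all genes). The plate libraries of esb1-1 were numbered 7 to 12, so that genotype and number cannot be told apart. With the number as a covariate, RSL2 changed by −1.89 and LRL3 by −2.01 on the log2 scale, and neither was called (edgeR adjusted p = 0.39 and 0.20). In soil roots no member was called in esb1-1, where 0.831% of all genes were, and the difference between the sets was not tested. In sos3-2 and chx25-3, 0 of 5 members were called in either set, where 0.0983% and 2.72% of all genes were called on plates and 0.0639% and 0.0295% in soil.

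Wild type roots from soil held less of every member tested than wild type roots from plates. RSL4 averaged 1.01 ± 0.538 CPM in soil and 8.29 ± 1.35 on plates (SD, n = 6 each), and LRL3 averaged 7.23 ± 2.72 in soil and 57.3 ± 16.6 on plates (SD, n = 6 each). All 5 members were called lower, with log2 fold changes of −3.04 ± 0.36 for RSL4, −3.03 ± 0.29 for LRL3, −2.30 ± 0.33 for RSL2, −1.78 ± 0.24 for RHD6 and −1.15 ± 0.41 for RSL1 (edgeR adjusted p at most 0.016), where 22.5% of all genes were called lower and 45.2% in either direction. Age, medium and number of plants per library differ together here. RSL1 passed the low count filter through plate libraries alone, as no soil root library exceeded 1.05 CPM. RSL4 passed it mainly through plates, with a soil root median of 0.884 CPM in the genotypes other than rhd6-3/rsl1-1. For both, a lower level in soil was thus favoured by the filter. Wild type soil roots against soil shoots had all 5 higher, where 34.9% of all genes were called higher and 62.3% in either direction. No grouped shoot library held any member at 2 CPM, the highest being 1.44 for RHD6 in rhd6-3/rsl1-1. The 5 members thus passed the low count filter through root libraries, so that this count was favoured in advance and is no test. RHD6, RSL1 and RSL4 had no read in the 6 wild type shoot libraries and RSL2 and LRL3 had 1 each, so that the members were at or below the floor of 3 reads in shoots.

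By the measure of Pearson's r on log2 of CPM plus 0.5 over 57 root libraries, given as a description, the genes most like LRL3 were AT1G30870 (r = 0.991) and EXPA7 (r = 0.989), which kept r = 0.976 and 0.975 over the 46 libraries without rhd6-3/rsl1-1. The genes most like RSL2 were MES15 (0.961) and RHS12 (0.954), with LRL3 itself among the first 5 (0.952). Without rhd6-3/rsl1-1, RSL2 and LRL3 had r = 0.543 within plate libraries and 0.419 within soil libraries (n = 23 each). AT1G73580 (0.969) and UCC3 (0.960) were most like RSL4. RHD6 was most like AT5G15320 (0.900) and AT3G07568 (0.892), and no root hair growth gene was among its first 5. All of these points share the contrast between plates and soil, which also separates many other genes. AT5G15320 stood at rank 326 by likeness to RHD6 within plate libraries alone and at rank 5 within soil libraries alone. The 5 genes nearest to LRL3 stood at ranks 2 to 9 within plate libraries, which include those of rhd6-3/rsl1-1 near 0, and at ranks 10 to 23 within soil libraries.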

How the data were processed

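The authors prepared QuantSeq 3′ mRNA libraries and quantified transcripts with Salmon. The version, transcript set, genome build and use of strand are not given in the sources used here, so no coordinates or sequences are given. The deposited files hold expected counts and TPM values per transcript. Between 24.93% and 47.3% of counted transcripts in a library had an expected count that was not whole, because reads were shared between similar transcripts. This share includes transcripts of 1 locus, which summing joins, while sharing between loci leaves close paralogs uncertain. Member sums were not whole for RHD6 (30.86) with RSL1 (5.139) in 4x rhd6-3/rsl1-1 plate replicate 3. The others were RSL2 (28.8) with RSL3 (7.199) in 2x chx25-3 plate replicate 1. Expected counts were summed per locus and rounded. Symbols came from RefSeq and the study's names, except that RSL3 and RSL5, among others, carry the names under which they were listed.

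A single quasi-likelihood model (edgeR 4.0.16 under R 4.3.3, TMM scaling, group means as coefficients) covered the 86 grouped libraries and the genes that reached 2 CPM in 6 or more of them. Benjamini-Hochberg adjustment ran over all genes tested in a contrast. CPM values use TMM-scaled library sizes. Rate ratios have 95% Clopper-Pearson intervals of the conditional binomial. The script was tested on simulated data. The 7 members, the 5 gene lists and the named genes were chosen with earlier results of these data known. Genes named from a list are at most 8 members called in rhd6-3/rsl1-1 against wild type in a root set, those with the largest log2 fold change in size, and the 2 uncalled members with the highest mean CPM in wild type roots. The genes most like a member are taken from its first 5. Alternatives used limma 3.58.1 and DESeq2 1.42.0, other scalings, filters and subsets, the replicate block, the library number, and each library left out. The 2 libraries whose title and genotype label disagree were put in no group.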

Additional observations from a re-analysis of the deposited data

Results flagged for a closer look

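RSL4 had a difference between rhd6-3/rsl1-1 and wild type that was itself different between the root sets, with a log2 value of 5.23 (soil minus plate) that edgeR called. It rests on 13 rhd6-3/rsl1-1 reads in soil roots and 3 on plates, and 3 of 23 fits that left out 1 library lost the call.

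RHD6 had reads in the shoots of rhd6-3/rsl1-1, which the root comparisons do not use. The libraries held 3, 3 and 4 reads at 4x and 5, 1 and 2 reads at 2x, 18 in all, against none in 6 wild type shoot libraries. Taking a floor of 3 reads over the wild type libraries, the level was 6.57-fold higher. This value leaves out the counting error of the 18 reads. Of 23 shoot libraries of the other 4 genotypes, 2 held 1 RHD6 read each, and RSL1 had 3 reads in 2 rhd6-3/rsl1-1 shoot libraries and none in wild type.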

How the results depend on the processing

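A count of members called was taken as unchanged within 1.5 times of its value, which can hide the loss or gain of 1 call. RSL4 in soil roots, for example, lost its call with the soil set alone or the compared groups alone. At 2x it gained one with both limma-voom fits. By that rule the number of members called in rhd6-3/rsl1-1 against wild type was unchanged under every alternative except the library number as a covariate. With that covariate 1 member was called on plates in place of 4 (1 at 4x and 1 at 2x, in place of 4 and 3), 0 in esb1-1 plate roots in place of 2, 0 in the difference between soil and plates in place of 1, and 1 between wild type soil and plate roots in place of 5. The folds of the members whose calls were lost, other than RHD6, were larger, for example for RSL4 −8.67 in place of −7.41 in rhd6-3/rsl1-1 on plates and 6.51 in place of 5.23 in the difference, for RSL2 −1.89 in place of −1.31 in esb1-1 and −3.40 in place of −2.30 between soil and plates. On plates it left 13 of 29 root hair growth genes and 0 epidermal patterning genes called in rhd6-3/rsl1-1, 1 root hair growth gene called in esb1-1, and 84 genes in all in place of 1287. It also turned the sign of RHD6 in rhd6-3/rsl1-1 on plates (0.0637 in place of −1.26, 0.1631 at 4x), of RHD6 in the difference between soil and plates (−0.4408), of TTG1 (−0.8568) and GTL1 (0.3608) on plates and of LRL3 between ploidies on plates (−0.0122). The number is nested in genotype on plates. The calls over all genes on plates were also 2034 with limma-voom on scaledTPM counts, 2324 with root libraries alone, 2034 with the plate set alone, 2076 with the compared groups alone and 2020 with the replicate block.

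Of the other root hair regulators, 2 were called in rhd6-3/rsl1-1 plate roots with scaledTPM counts, root libraries alone, the plate set alone or the compared groups alone, and 1 with DESeq2 or the replicate block. In esb1-1 plate roots 1 was called with relative log expression factors, scaledTPM counts, root libraries alone, the set alone, DESeq2 or the replicate block. Epidermal patterning genes called were 1 on plates with the compared groups alone and 2 in soil with the set alone. The difference between soil and plates had 3 members called with either limma-voom fit and 2 with DESeq2, chx25-3 ploidy on plates had 2 with either limma-voom fit, and soil roots against shoots had 3 with scaledTPM counts. The cause was not tested.

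Small values changed sign. RHD6 at 4x in soil was −0.0758 and −0.0423 with the limma-voom fits, RHD6 between ploidies in soil 0.0009 and 0.0068, RSL1 at 4x in soil 0.0318 with DESeq2, RSL1 between soil roots and shoots −0.1842 with scaledTPM counts, and JKD in soil 0.0002, 0.0013, 0.0013 and 0.0020 with relative log expression factors, scaledTPM counts, the set alone and DESeq2. Leaving out each library in turn gave 0 to 2 members called in the difference between soil and plates and 1 to 2 epidermal patterning genes on plates. Over such fits RHD6 at 4x in soil ran from −0.5304 to 0.3730, RSL1 at 4x in soil from −0.2587 to 0.4505, RSL2 between ploidies on plates from −0.5404 to 0.3395, RHD6 and RSL1 between ploidies in soil from −0.1307 to 0.0703 and from −0.3570 to 0.0433, and TTG1 and JKD in soil from −0.1286 to 0.0057 and from −0.0864 to 0.0274. The RSL5 mean difference on plates ran from −0.2209 to −0.138 CPM, and its exact permutation p reached 0.05.

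Replicate numbers gave no clear pairing of the samples. The correlation of deviations between same-numbered libraries ran from −0.233 to 0.361 over 11 pairs, and 3 exceeded 0.1. Of 11 rhd6-3/rsl1-1 root libraries, 4 correlated best with their own number. So few pairs cannot settle whether replicates shared a block. With the replicate block, 2020 genes in all were called on plates in place of 1287. With the replicate block, 4 members on plates and 3 in soil were called in rhd6-3/rsl1-1, as without it, and RHD6 at 2x (log2 −1.40, edgeR adjusted p = 0.031) and CSLD3 (−0.50, 0.022) on plates were called besides, as under other alternatives. RSL1, RSL3 and RSL5 had few reads per library.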

Other observations

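A soil root library whose title and genotype label disagree held 19 RHD6, 4 RSL1, 54 RSL2, 2 RSL3, 9 RSL4, no RSL5 and 64 LRL3 reads among 7669488 assigned reads. The shoot library of the same description held 1 RSL2 and 1 LRL3 read among 7277405.

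The root hair growth list leaned to opposite sides with ploidy in the 2 root sets. Over the 5 genotypes its median log2 fold change of 4x against 2x was 0.34 in plate roots, with 4 of 29 genes negative, and −0.43 in soil roots, with 26 of 29 negative, beside 0.0045 and −0.0011 over all genes. These means include rhd6-3/rsl1-1, where the median log2 fold change of the list against wild type on plates was −7.25. Many of its genes had almost no reads there, so that their fitted ploidy changes depend on how the model treats zero counts. The list was not tested without rhd6-3/rsl1-1. Of the 29, none was called on plates and 1, lower, in soil. The difference between the sets was not tested, and other lists also moved with ploidy in soil roots. There all 6 endodermis markers had a negative change at 4x (median −0.41, 2 called lower) and all 6 leaf markers a positive one (median 0.73, none called), and their part in the root hair growth values was not tested.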
